A study of Mus musculus with 37 samples.

Results

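The genes described here encode enzymes of mitochondrial fatty acid oxidation and a pair of regulators that are often read with them. They were chosen by symbol, as 10 of the 24421 gene symbols in the count table: Cpt1b and Cpt2, Acadvl, Acadl and Acadm, Hadha and Hadhb, Etfdh, Pdk4 and Ppargc1a. The rule uses the symbols and no measured value, but the 10 genes were chosen with earlier results of these data known. All 10 were found, and all 10 passed the filter on low counts.

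Long-chain fatty acids enter mitochondria bound to carnitine, which CPT1 attaches at the outer membrane and CPT2 removes at the inner membrane. Acyl-CoA dehydrogenases then open each turn of beta-oxidation, the trifunctional protein completes it on long chains, and ETFDH passes the electrons to ubiquinone. The pathway is the main energy source of heart, oxidative skeletal muscle and brown fat. In the mouse lung, the long-chain dehydrogenase encoded by Acadl is known from alveolar type 2 cells.

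RNA was sequenced from the lungs of 37 C57BL/6 mice, with 1 library per mouse. The silicon group (7 mice, 3 males and 4 females) received 0.75 Gy of 300 MeV/U silicon ions, and silicon + NR (6 mice, 4 males and 2 females) received the same while drinking water with 12 mM nicotinamide riboside (NR), a form of vitamin B3, begun before the exposure. The GCR group (7 mice, 3 males and 4 females) received 0.75 Gy of a simplified simulation of galactic cosmic radiation, which by the submitters' description held 34.8% and 39.2% of its beam as protons of 1 GeV and 250 MeV, 18.0% helium, 5.8% oxygen, 1.1% silicon and 1.0% iron. The gamma group (5 mice, 3 males and 2 females) received 0.75 Gy of gamma rays from caesium-137, mock + NR (5 mice, 4 males and 1 female) received 0 Gy with 12 mM NR, and mock (7 mice, 5 males and 2 females) received 0 Gy without NR. No transgene or deletion is given for any group, and the sources used here state neither the mice's age nor the time from exposure to dissection. Replicate numbers only name a mouse.

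Total counts ran from 9485197 to 66381526 per library, with a median of 28476462, and levels are given as counts per 1000000 of each library's total (CPM). Some libraries stood apart. Gamma replicates 3 and 4 held 17519 and 24514 CPM of Nppa, the atrial natriuretic peptide gene, and no other library passed 10000 CPM. Acta1, the skeletal muscle actin gene, passed 1000 CPM in 13 libraries (5 of 7 silicon, 2 of 6 silicon + NR, 0 of 7 GCR, 0 of 5 gamma, 2 of 5 mock + NR and 4 of 7 mock). Ucp1, the brown fat uncoupling protein gene, passed 100 CPM in 4 libraries (silicon replicates 3 and 6, gamma replicate 3 and mock replicate 5). Rn45s, the ribosomal RNA precursor, passed 100000 CPM in GCR replicates 2, 5 and 6 and in mock replicate 4. The gamma library labelled as female replicate 5 had 87.6 CPM of the Y-linked Ddx3y and 3.73 CPM of Xist, against its label. Alveolar type 2 markers were present in every group, with lowest library sums of 2551 CPM in silicon, 2148 in silicon + NR, 5332 in GCR, 4641 in gamma, 2608 in mock + NR and 9209 in mock, so lung tissue was in each.

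The genes lie on 7 chromosomes of GRCm38 by GENCODE M21. Acadl is at chr1:66830839-66863277, Acadm at chr3:153922357-153944632, Etfdh at chr3:79603788-79629500, Cpt2 at chr4:107903981-107923610 and Hadha at chr5:30118304-30155162, all on the minus strand. Hadhb is at chr5:30155248-30184593 on the plus strand. Ppargc1a at chr5:51454250-51567726, Pdk4 at chr6:5483351-5496309, Acadvl at chr11:70010183-70015411 and Cpt1b at chr15:89416405-89425863 are on the minus strand. The libraries do not mark strand, so reads from overlapping genes cannot be told apart: 42.9% of the exonic bases of Acadvl are shared with Dvl2, and 81.4% of those of Cpt1b with the readthrough gene Gm44502.

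Promoters are shown because the levels of these genes correlated across libraries, as described further on. Each sequence below is the portion of the RefSeq promoter window (GRCm38.p6) that holds no exon of GENCODE M21, written 5′ to 3′ on the gene's own strand, with the hexamer AGGTCA, or TGACCT where it lies on the other strand, in capitals. AGGTCA is the core of the elements bound by the nuclear receptors PPAR and ERR. Hadha and Hadhb start back to back, and the run between them is 85 bases long.
Hadha to Hadhb, chr5:30155163-30155247, plus strand: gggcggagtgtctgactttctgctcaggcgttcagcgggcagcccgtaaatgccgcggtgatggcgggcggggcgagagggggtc
Acadvl, chr11:70015412-70015678, minus strand: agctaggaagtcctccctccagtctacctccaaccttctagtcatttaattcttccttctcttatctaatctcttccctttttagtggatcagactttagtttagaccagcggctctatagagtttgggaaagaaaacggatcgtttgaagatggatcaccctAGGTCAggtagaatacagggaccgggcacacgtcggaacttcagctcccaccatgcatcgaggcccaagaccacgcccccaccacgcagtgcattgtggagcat
Acadm, chr3:153944633-153944893, minus strand: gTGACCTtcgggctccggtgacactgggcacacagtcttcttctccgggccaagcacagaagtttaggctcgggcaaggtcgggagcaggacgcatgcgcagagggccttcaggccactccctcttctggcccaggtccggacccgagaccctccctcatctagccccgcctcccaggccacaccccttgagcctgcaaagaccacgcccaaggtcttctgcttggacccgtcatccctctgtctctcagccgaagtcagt
Pdk4, chr6:5496310-5496528, minus strand: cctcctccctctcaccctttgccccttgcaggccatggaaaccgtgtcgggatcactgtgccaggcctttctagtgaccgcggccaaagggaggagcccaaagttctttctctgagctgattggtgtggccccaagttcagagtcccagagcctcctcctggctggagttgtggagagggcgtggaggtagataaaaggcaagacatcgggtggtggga
Of the 10 genes, 9 had a promoter entry in RefSeq. AGGTCA was found on either strand in 2 of those 9 windows, those of Acadvl and Acadm, and in 16.3% of 32851 promoter windows of the same length. The longer TCAAGGTCA, which contains AGGTCA, was in 0 of 9 and in 0.423% of all windows, and the DR1 repeat, a pair of AGGTCA copies in the same direction with a single base between them, was in 0 of 9 and in 0.0396%. These are matches of letters in short windows and do not show binding.

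Levels of different genes were compared per kilobase of the longest coding transcript of the GENCODE basic set. On this scale the acyl-CoA dehydrogenases led, with medians over the 37 libraries of 119.98 CPM per kb for Acadl, 86.1 for Acadvl and 73.9 for Acadm. The trifunctional protein subunits followed at 64.0 for Hadhb, the beta subunit with the thiolase, and 18.4 for Hadha, the alpha subunit with the hydratase and dehydrogenase. Etfdh stood at 22.5, Cpt2 at 15.6, Pdk4 at 14.4 and Ppargc1a at 3.80 CPM per kb. Cpt1b, the muscle isoform of CPT1, was last at 0.0651. These are levels and carry the spread between libraries described next. The level of Acadvl, and so its rank, is also uncertain, since 42.9% of its exonic bases are shared with Dvl2.

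Cpt1b was close to the limit of counting. It had 319 counts over all 37 libraries, with 0 counts in 7 of them, which allows up to 0.0852 to 0.316 CPM in those libraries (3 counts of each total). Cpt1a, the isoform of liver and most other tissues, had 72825 counts, and Chkb, the neighbour that the readthrough transcript joins to Cpt1b, had 10222. The row for the readthrough itself, ChkbCpt1b, had 0 counts in every library. The sources used here do not state how reads on shared bases were counted, so values of Cpt1b are uncertain. Its highest values were 1.15 CPM in silicon replicate 4 and 1.05 CPM in gamma replicate 3.

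The other 9 genes varied widely between mice. Acadl, the long-chain acyl-CoA dehydrogenase, ran from 77.9 to 1221 CPM over the 37 libraries, with a median of 229.9. Pdk4, the kinase that switches off pyruvate dehydrogenase so that fat replaces glucose as fuel, ran from 4.70 to 585 CPM, with a median of 50.03. Ppargc1a, the coactivator PGC-1alpha, ran from 7.18 to 70.9 CPM, with a median of 24.6. A single library, gamma replicate 3, held the highest value of 8 of the 10 genes; the exceptions were Cpt1b, highest in silicon replicate 4, and Ppargc1a, highest in gamma replicate 4. GCR libraries held the lowest value of 8 of the 9 genes that had no library at 0. Of these 8, 5 were lowest in GCR replicate 1 and 3 in GCR replicate 2, which is Rn45s-rich.

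**Figure D1:**
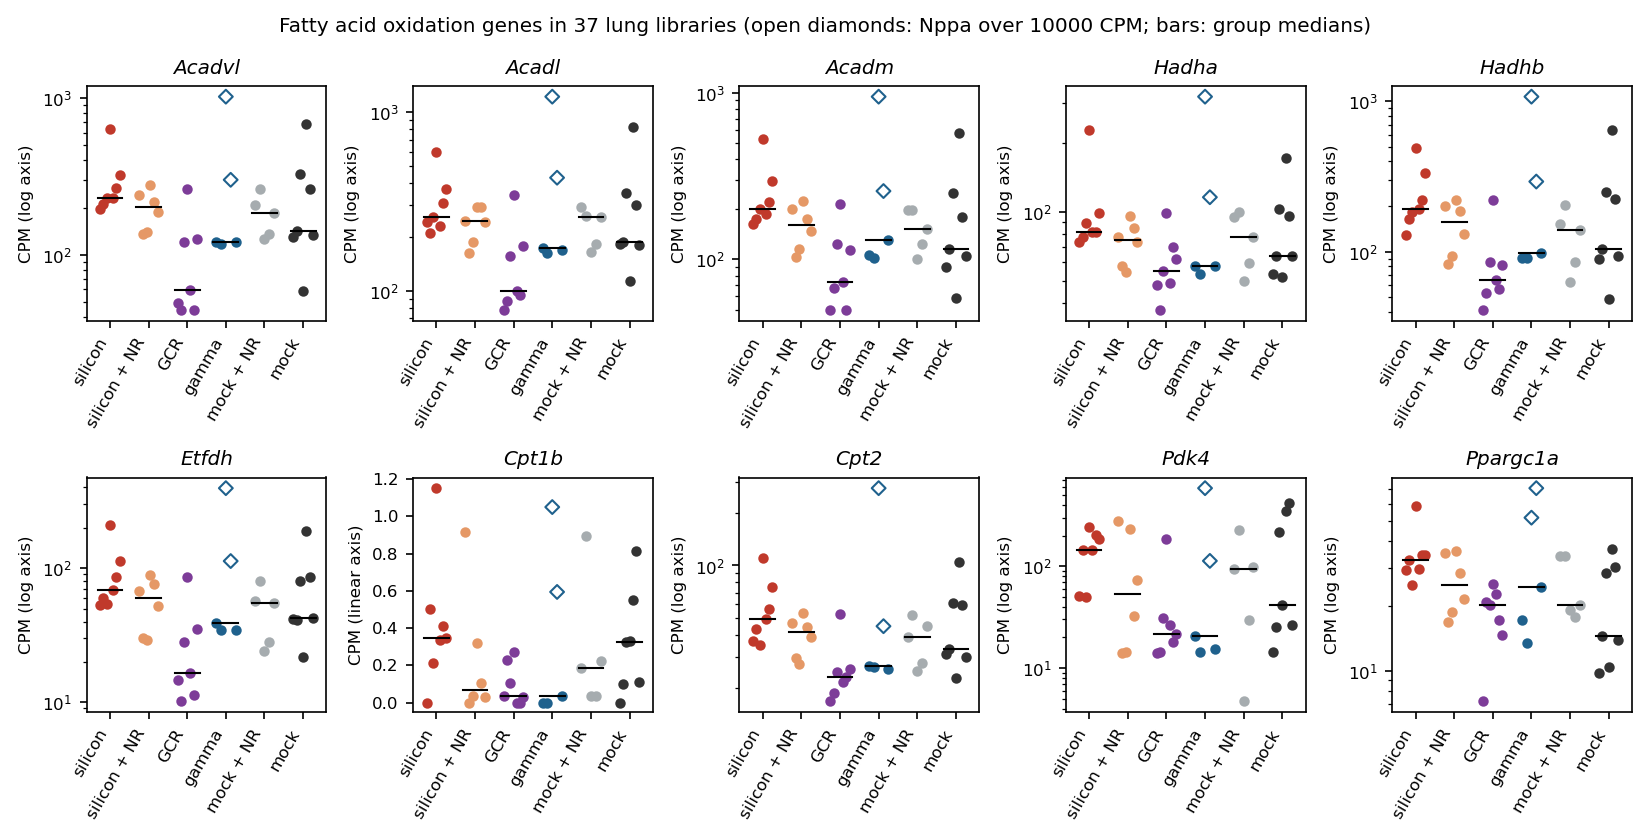
Level of each gene in every library, in CPM, by group (log axes, except a linear axis for Cpt1b). Each point is 1 mouse, the bar is the group median, and open diamonds are the 2 gamma libraries over 10000 CPM of Nppa, which hold the highest value of all genes but Cpt1b.

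Over the 37 libraries, log2(CPM + 1) of the 9 genes other than Cpt1b correlated with each other at Pearson r from 0.738 to 0.981 over 36 pairs, with a median of 0.928. With Cpt1b the lowest r over 45 pairs was 0.675. Without the 2 Nppa-rich libraries the 36 pairs ran from 0.730 to 0.978, and without the 13 Acta1-rich ones from 0.633 to 0.985. Over the 22 libraries of neither kind they ran from 0.398, for Etfdh with Ppargc1a, to 0.980, with a median of 0.802. The points share libraries, depth and tissue makeup, so these values describe the libraries and are no test. Among the genes outside the 10 whose levels ran closest to the mean of the 10 were Dlat (r = 0.977), Cyc1 (0.975), Pdhx and Sucla2 (each 0.974), Pdhb (0.973) and Sdha (0.972), of 12947 genes compared. These 6 encode parts of the pyruvate dehydrogenase complex, the citric acid cycle or the respiratory chain. Without the 2 libraries farthest from the median of the mean level, r for these 6 ran from 0.962 to 0.981. Without the Nppa-rich libraries the closest was Cyc1 (r = 0.981), and Dlat, Sucla2 and Pdhb were again among the first 8.

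The mean level moved with markers of muscle and fat. The 13 Acta1-rich libraries had a median of 216 CPM of Pdk4, 80.7 of Etfdh and 264.5 of Acadvl. The 21 libraries at or under the limits for Nppa, Acta1 and Ucp1 had medians of 21.5 CPM of Pdk4, 34.8 of Etfdh and 130.4 of Acadvl. The 4 libraries over 100 CPM of Ucp1 had medians of 274 CPM of Pdk4 and 138 of Etfdh. Of these, silicon replicate 6 and mock replicate 5 were also Acta1-rich, and gamma replicate 3 was Nppa-rich. Silicon replicate 3, under both muscle limits, had 50.03 CPM of Pdk4 and 54.1 of Etfdh. These medians therefore do not separate brown fat from muscle. Summed cardiac markers (18 genes) had lowest, median and highest values of 2077, 7634 and 11889 CPM in silicon, 2113, 6973 and 11309 in silicon + NR, 99.9, 789 and 7913 in GCR, 766, 2822 and 58194 in gamma, 528, 4250 and 13312 in mock + NR, and 714, 5212 and 15185 in mock. Summed skeletal muscle markers (16 genes) were widest apart, with highest libraries at 101138 CPM in silicon, 74243 in silicon + NR, 161 in GCR, 440 in gamma, 77867 in mock + NR and 59627 in mock. Summed brown adipose markers (8 genes) reached 789.7 CPM in silicon, 230 in silicon + NR, 139.6 in GCR, 1458 in gamma, 224 in mock + NR and 1029 in mock. Of the 8, Zic1 was at 0 in every GCR and gamma library. The highest sums in silicon, silicon + NR and mock + NR came from Acta1-rich libraries with 0.144, 0.203 and 0.154 CPM of Ucp1. In these libraries 4, 3 and 3 of the 8 markers reached 1 CPM, and whether brown fat gave these sums was not tested. No cardiac or skeletal marker was at 0 in every library of a group. In bulk RNA, fewer cells of a type and less RNA per cell cannot be told apart, and the part of these tissues in the comparisons below was not tested beyond the fits without such libraries.

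**Figure D2:**
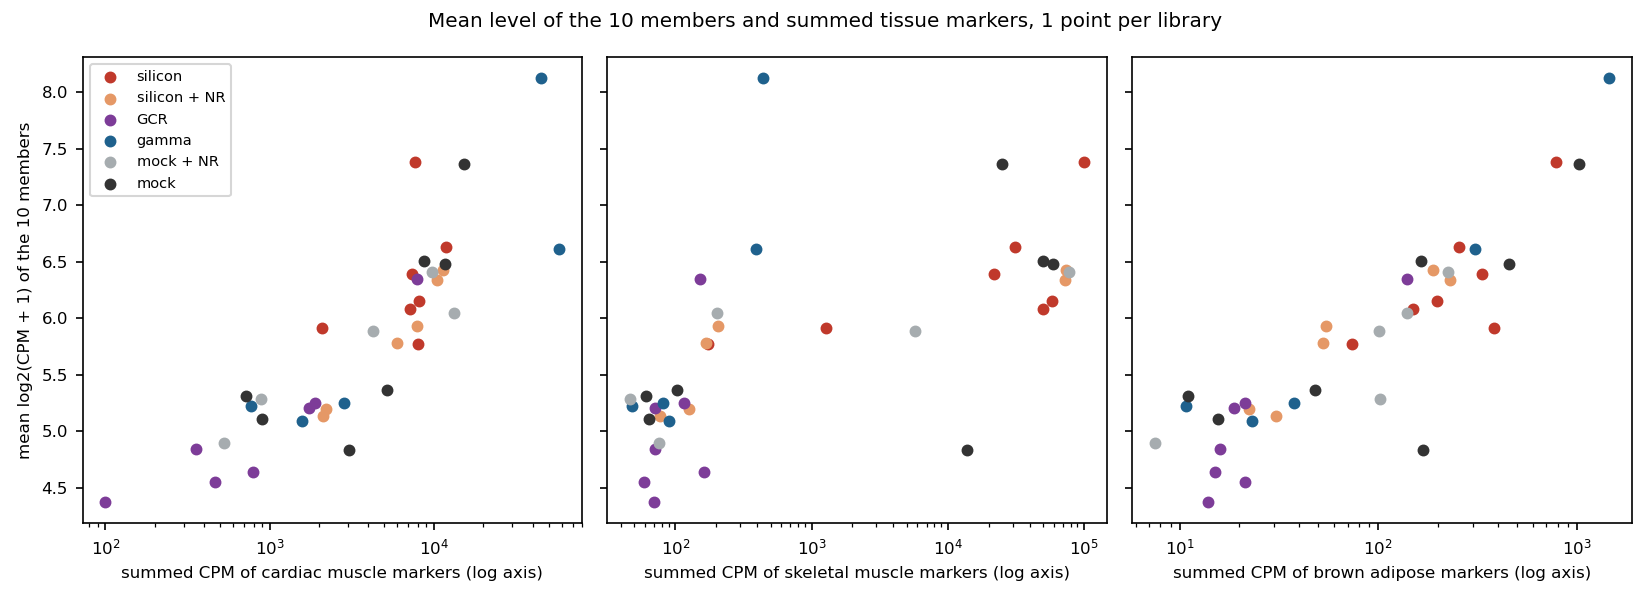
Mean log2(CPM + 1) of the 10 genes in each library (vertical axis) against summed CPM of cardiac muscle, skeletal muscle and brown adipose markers (log axes), 1 point per mouse. The mean is highest in gamma replicate 3, which has 44764 CPM of cardiac, 440 of skeletal muscle and 1458 of brown adipose markers. It is lowest in GCR replicate 1, with 99.9 CPM of cardiac markers.

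The comparison of GCR with mock asked what the simulated cosmic radiation does to lung RNA. With all libraries none of the 10 genes was called, beside 16.6% of all genes tested. Without the 2 Nppa-rich gamma libraries Acadvl, Acadl, Etfdh, Hadhb and Cpt2 were called lower in GCR, beside 19.2% of all genes called. Without the Acta1-rich libraries, alone or together with the Nppa-rich ones, none was called, and 0% of all genes were. Acadvl, the very-long-chain acyl-CoA dehydrogenase, had 44.5 CPM in the lowest GCR library, a median of 59.9 and 264 CPM in the highest, against 58.8, 142 and 686 CPM in mock. Acadl had 77.9, 100.1 and 345 CPM in GCR, against 113, 188 and 824 CPM in mock. GCR replicate 4 was the highest GCR library for both genes, and the groups overlapped. That library also had the highest cardiac, brown adipose and white adipose marker sums of its group (7913, 139.6 and 1019 CPM). Acadm, the medium-chain enzyme, had 49.8, 72.8 and 216 CPM in GCR, against 58.6, 115 and 574 CPM in mock, again overlapping.

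Etfdh, at the exit of electrons from the pathway, had 10.2, 16.4 and 85.6 CPM in GCR, against 21.6, 42.5 and 190.0 CPM in mock (lowest, median and highest). Hadhb had 41.0, 64.9 and 222 CPM in GCR, against 48.3, 104 and 643 CPM in mock. Cpt2 had 16.8, 23.3 and 53.1 CPM in GCR, against 22.98, 33.2 and 105 CPM in mock. The lowest mock library for these 3 genes was replicate 4, which is Rn45s-rich; the GCR median lay under it for Etfdh and above it for Hadhb and Cpt2. GCR replicate 4 lay above at least 4 mock libraries for each gene, so the groups overlapped. Pdk4 had 14.1, 21.5 and 187 CPM in GCR, against 14.4, 41.1 and 416 CPM in mock, and Ppargc1a had 7.18, 20.1 and 25.5 CPM in GCR, against 9.74, 14.5 and 36.9 CPM in mock. Both pairs of ranges overlapped.

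With all libraries, 0 of the 10 genes were called at an adjusted p under 0.05 in GCR against mock, while 16.6% of the 16977 genes tested were (edgeR quasi-likelihood test, Benjamini-Hochberg). All 10 log2 fold changes were below 0, with a median of -1.10, beside -0.06 over all genes tested, and 5 had an unadjusted p under 0.05. Etfdh was at -1.39 (SE 0.54, adjusted p = 0.0696), Acadvl at -1.25 (SE 0.49, adjusted p = 0.0703), Acadl at -0.99 (SE 0.42, adjusted p = 0.0932) and Hadhb at -1.21 (SE 0.54, adjusted p = 0.11). Pdk4 was at -1.94 (SE 0.93, adjusted p = 0.135) and Ppargc1a at -0.05 (SE 0.36, adjusted p = 0.934) by the same edgeR test. Single libraries changed the count: without GCR replicate 4, 4 genes were called lower (Acadl, Acadvl, Etfdh and Pdk4) beside 24.1% of all genes, and without mock replicate 4, 1 was (Acadvl) beside 19.1%. Without mock replicate 5 the median of the 10 was -0.60, 0 had an unadjusted p under 0.05 and 0 were called, beside 9.21% of all genes.

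Without the 2 Nppa-rich gamma libraries, 5 of the 10 genes were called lower in GCR than in mock, and 19.2% of 17264 genes tested were called. Those libraries belong to neither group, but all groups share 1 estimate of the spread. Etfdh fell by 1.47 on the log2 scale (SE 0.44, edgeR adjusted p = 0.0237), Acadvl fell by 1.33 (SE 0.41, adjusted p = 0.0259) and Acadl fell by 1.04 (SE 0.33, adjusted p = 0.0295). Cpt2 fell by 0.87 (SE 0.29, edgeR adjusted p = 0.0357) and Hadhb fell by 1.29 (SE 0.44, adjusted p = 0.0386). Relative to the fit with all libraries these fold changes moved little and their standard errors became smaller. With DESeq2 and all libraries, 2 of the 10 (Acadvl and Etfdh) were called lower, and 22.6% of all genes were called.

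Without the 13 Acta1-rich libraries, which leaves 3 mock mice beside the 7 GCR mice, 0 of the 10 genes were called, as were 0% of all genes, and the median of the 10 was 0.04. Acadvl was then at -0.32 (SE 0.55, edgeR adjusted p = 0.793) and Pdk4 at 0.83 (SE 1.07, adjusted p = 0.71). Without either kind of library Etfdh was at -0.64 (SE 0.39, edgeR adjusted p = 0.337), Acadvl at -0.42 (SE 0.32, adjusted p = 0.459) and Hadha at 0.13 (SE 0.18, adjusted p = 0.7). With all libraries, 15 of 16 skeletal muscle markers, 3 of 17 cardiac markers tested and 1 of 8 brown adipose markers were called lower in GCR than in mock. The Acta1-rich mock libraries were replicates 3, 4, 5 and 6. Without the 4 Rn45s-rich libraries, 3 of them GCR, 0 of the 10 genes and 0% of all genes were called, with a median of -0.96 for the 10.

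**Figure D3:**
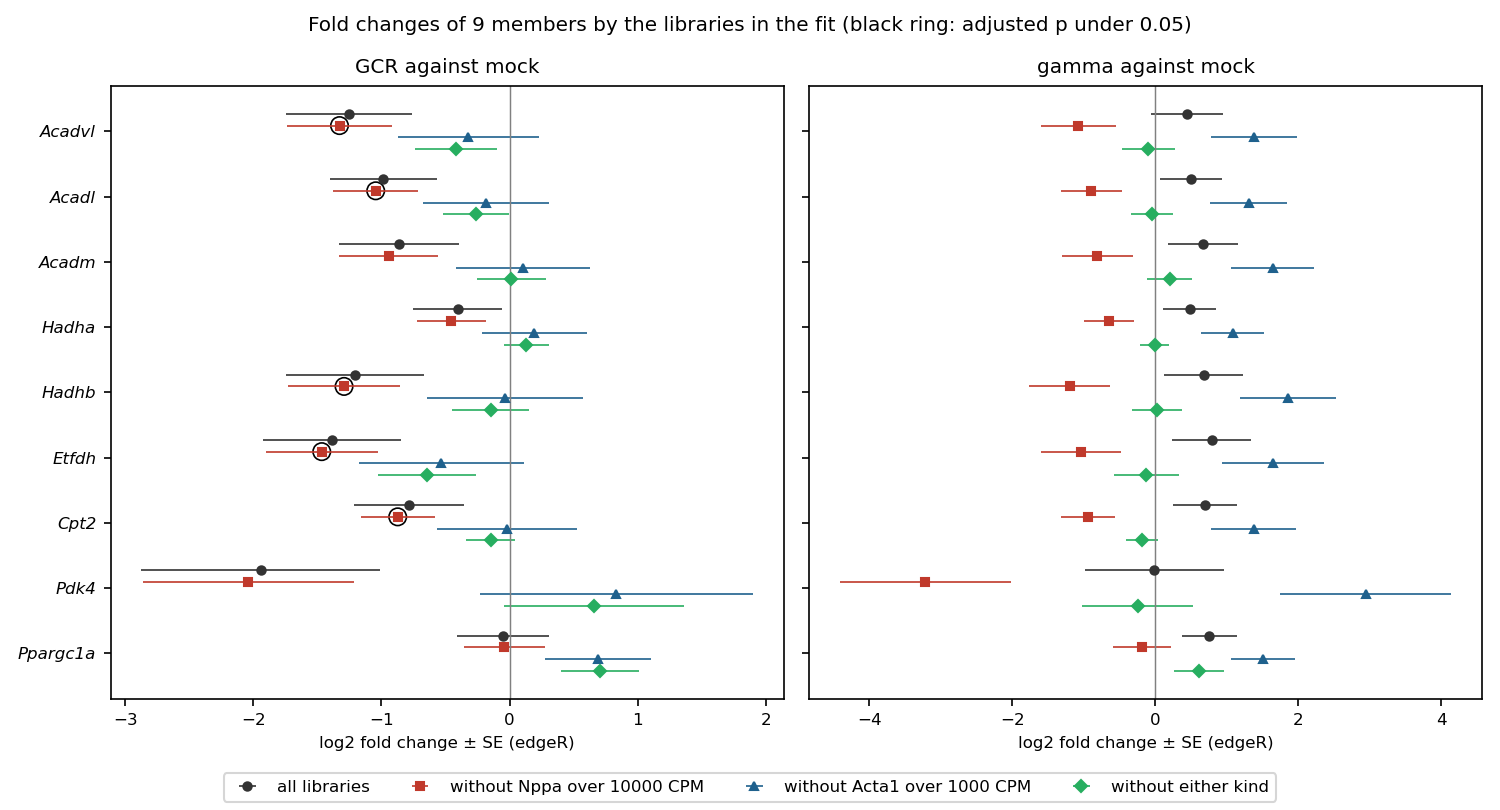
Log2 fold change ± SE (edgeR) of 9 genes in GCR against mock (left) and gamma against mock (right), with all libraries, without the 2 Nppa-rich, without the 13 Acta1-rich and without either kind. Black rings mark adjusted p under 0.05, which 5 genes reach in GCR without the Nppa-rich libraries; in gamma against mock all 9 points lie below 0 without the Nppa-rich libraries and above 0 without the Acta1-rich ones.

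In gamma against mock none of the 10 genes was called, and the sign of their median depended on gamma replicate 3. Acadl had 173, 162, 1221, 429 and 169 CPM in gamma replicates 1 to 5, against 113, 188 and 824 CPM in mock (lowest, median, highest). Pdk4 had 20.8, 14.3, 585, 113 and 15.4 CPM in the same gamma libraries, against 14.4, 41.1 and 416 CPM in mock. Replicates 3 and 4, the Nppa-rich ones, were far above the other 3 for both genes, and the groups overlapped. Ppargc1a had 17.2, 13.4, 51.6, 70.9 and 24.6 CPM in gamma, against 9.74, 14.5 and 36.9 CPM in mock. Here replicate 4, not replicate 3, was the highest, and the groups overlapped.

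The 2 Nppa-rich mice also differed from each other. Gamma replicate 3 had 807 CPM of Ucp1, 955 CPM of the fat gene Adipoq and 9363 CPM of summed white adipose markers, the highest sum of any library. Gamma replicate 4 had 0.188 CPM of Ucp1 and 22.8 CPM of Adipoq. Cpt2 was 276 CPM in replicate 3 and 45.1 CPM in replicate 4, and Hadhb was 1073 CPM and 293 CPM. The library with fat markers thus had the higher values of these genes, and the other had more Nppa and Ppargc1a, as a description of 2 libraries.

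With all libraries, 0 of the 10 genes were called in gamma against mock, and 0.0295% of all genes were. The median log2 fold change of the 10 was 0.58, with 9 above 0, beside -0.01 over all genes. Ppargc1a was at 0.75 (SE 0.38, edgeR adjusted p = 0.52) and Etfdh at 0.79 (SE 0.55, adjusted p = 0.681). Without the 2 Nppa-rich libraries, 3 gamma mice remained and the median was -0.99, with 0 of 10 above 0 and 0 called, as against 0.0232% of all genes called. Pdk4 was then at -3.22 (SE 1.20, edgeR adjusted p = 0.42) and Acadl at -0.90 (SE 0.43, adjusted p = 0.43). Without the Acta1-rich libraries, but with the Nppa-rich ones, the median was 1.57 with 10 of 10 above 0, and the smallest edgeR adjusted p was 0.543. Without either kind the median was -0.05. Of single libraries, leaving out gamma replicate 3 gave a median of -0.63 with 1 of 10 above 0, leaving out gamma replicate 4 gave 0.50 with 9 of 10 above 0, and leaving out mock replicate 5 gave 0.95, with 0 called each time. Without gamma replicate 5, whose sex label the Y-linked reads go against, 0 were called and the median was 0.77.

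Silicon ions alone were compared with mock. Acadl had 211 CPM in the lowest silicon library, a median of 260.0 and 601 CPM in the highest, against 113, 188 and 824 CPM in mock. Pdk4 had 50.03, 145 and 241 CPM in silicon, against 14.4, 41.1 and 416 CPM in mock. Ppargc1a had 24.9, 32.7 and 58.6 CPM in silicon, against 9.74, 14.5 and 36.9 CPM in mock. Every silicon library lay above the 4 lowest mock libraries for Ppargc1a, but the groups overlapped for all 3 genes. Silicon replicate 4, which had the highest skeletal muscle marker sum of all libraries, was the highest silicon library for these genes.

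In silicon against mock 0 of the 10 genes were called, as were 0% of all genes, with a median of 0.31 for the 10 and 0.07 over all genes. Without silicon replicate 4 the median of the 10 was -0.02, with 3 above 0, and without mock replicate 5 it was 0.65. Ppargc1a had the smallest p, at 0.74 (SE 0.36, edgeR adjusted p = 0.383), and the other 9 had an unadjusted p of 0.05 or more. Without the Acta1-rich and Nppa-rich libraries, Ppargc1a was at 1.23 (SE 0.39, edgeR adjusted p = 0.0684), from 2 silicon and 3 mock mice, where 0 of 9 genes tested and 5.09% of all genes were called. All 9 were above 0 in that fit, with a median of 0.77, and 4 had an unadjusted edgeR p under 0.05. Of its 2 silicon mice, replicate 3 was Ucp1-rich. Acadl was at 0.07 (SE 0.42, edgeR adjusted p = 0.963) and Pdk4 at -0.18 (SE 0.91, adjusted p = 0.958) with all libraries. The group median of Pdk4 was higher in silicon, while mock replicates 3, 5 and 6 had from 216 to 416 CPM.

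NR was given with and without silicon. Pdk4 had 14.03, 53.0 and 276 CPM in silicon + NR (lowest, median, highest), against 50.03, 145 and 241 CPM in silicon, and the 2 highest silicon + NR libraries, replicates 1 and 4, were its 2 Acta1-rich ones. Pdk4 had 94.2, 229, 4.70, 29.3 and 99.2 CPM in mock + NR replicates 1 to 5, against 14.4, 41.1 and 416 CPM in mock, and the groups overlapped in both comparisons. The silicon + NR against silicon contrast in edgeR called 0 of 10, and 0% of all genes, with a median of -0.52 and 0 of 10 above 0. Without silicon replicate 4 the median was -0.21. With limma voom and quality weights, 2 of the 10 (Pdk4 and Cpt1b) were called lower in silicon + NR than in silicon, and 24.8% of all genes were called. Silicon + NR against mock + NR called 0 of 10 and 0% of all genes, with a median of 0.05, which ran from -0.09 to 0.25 as single libraries were left out. Mock + NR against mock called 0 of 10 and 0% of all genes, with a median of -0.28. The sign of that median turned with the libraries: it was 0.13 without mock replicate 5, 0.16 without the Ucp1-rich libraries, 0.42 without the Acta1-rich ones and 0.49 over 9 genes without the Acta1-rich and Nppa-rich ones, with 0 called each time. The interaction of NR with silicon called 0 of 10 and 0% of all genes, with a median of -0.24 and Ppargc1a at -0.75 (SE 0.53, edgeR adjusted p = 0.82). Without the Acta1-rich and Nppa-rich libraries its median over 9 genes was -0.94, 4 of the 9 had an unadjusted p under 0.05 and 0 were called, with a smallest edgeR adjusted p of 0.0518 (Ppargc1a), beside 8.58% of all genes called. That fit rested on 2 silicon, 4 silicon + NR, 3 mock and 3 mock + NR mice, and silicon replicate 3 was itself Ucp1-rich. Leaving out the Ucp1-rich libraries as well left 1 silicon library, with a median over 9 genes of -0.98. Without the Acta1-rich libraries alone the median was -0.71 and 0 of 10 were called, beside 7.79% of all genes. Without silicon replicate 4 alone the median was 0.07. Several of these comparisons share mock, mock + NR or silicon libraries, so their values are not independent of each other.

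Females against males, adjusted for group, called 0 of 10 genes in edgeR and 0.0589% of all genes. The 10 log2 fold changes had a median of 0.07, with Pdk4 at 0.28 (SE 0.65, edgeR adjusted p of 1.00) and Etfdh at 0.24 (SE 0.36, adjusted p of 1.00). Without gamma replicate 5, 0 were called and the median was 0.16, and over all single libraries left out the median ran from -0.04 to 0.32. With all libraries and edgeR, 0 of the 10 had an unadjusted p under 0.05 outside GCR and silicon against mock. In gamma against mock 6 of 10 had one without the Nppa-rich libraries, 9 of 10 without the Acta1-rich ones and 1 of 10 with DESeq2. DESeq2 called 0 of the 10 in every comparison but GCR against mock.

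Hadha and Hadhb, which share the 85 bases between their starts, did not keep a fixed proportion. The ratio of Hadhb to Hadha in CPM ran from 0.804 in GCR replicate 6 to 3.75 in mock replicate 5, with a median of 1.74. GCR replicate 6 is Rn45s-rich and had the fewest total counts, 9485197. The group medians were 2.13 in silicon, 1.98 in silicon + NR, 1.33 in GCR, 1.69 in gamma, 1.61 in mock + NR and 1.69 in mock. The ratio had a median of 2.36 in the 13 Acta1-rich libraries and 1.57 in the 21 libraries under all 3 limits. Hadha ranged from 37.2 to 319.6 CPM and Hadhb from 41.0 to 1073 CPM, so the beta subunit had the wider range. The highest value of Hadha was 8.60 times its lowest, the least among the 9 genes other than Cpt1b. The ratio of Acadvl to Hadha ran from 0.638 to 4.00, with its ends in the same 2 libraries. A shifting proportion was thus not particular to the pair that shares the 85 bases. No test was made of these ratios.

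**Figure D4:**
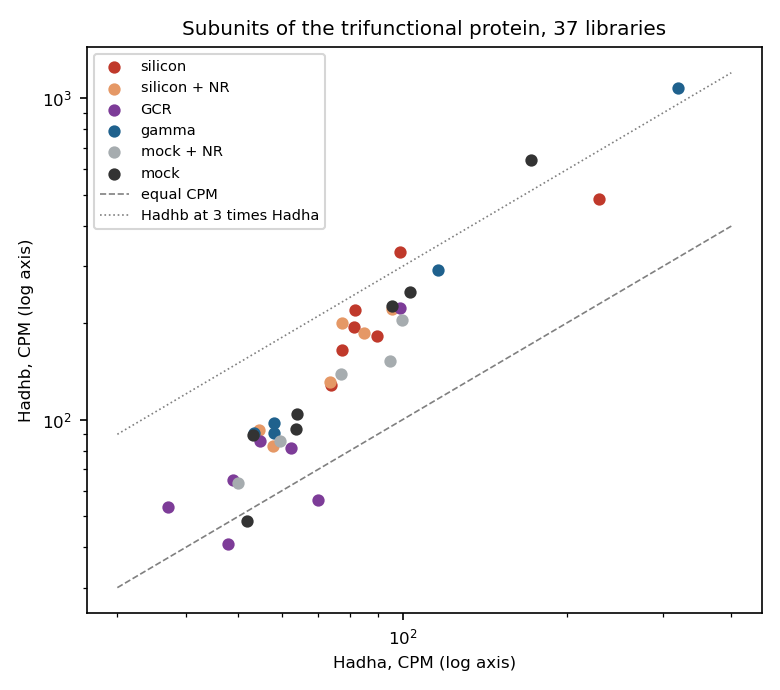
Hadhb (vertical axis) against Hadha (horizontal axis) in CPM, both on log axes, 1 point per mouse coloured by group, with lines at equal CPM and at Hadhb 3 times Hadha. The libraries with the most Hadhb, gamma replicate 3 (ratio 3.36) and mock replicate 5 (3.75), lie above the upper line, as does silicon replicate 7 (3.35). Silicon replicate 4, next in Hadhb, has a ratio of 2.13. GCR replicate 6, at a ratio of 0.804, lies lowest against the line of equality.

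Other fatty acid genes were read from the same fits as lists of their own. In GCR against mock with all libraries, the list of 23 other mitochondrial beta-oxidation genes had 1 called higher, Cpt1c, and 1 lower. Its median log2 fold change was -0.50. The list was set by symbol, and being on it does not show that Cpt1c acts in mitochondrial beta-oxidation. Of 15 peroxisomal genes 3 were called higher and 1 lower (median -0.24). Pex11a, which acts in peroxisome division, rose by 1.02 (SE 0.25, edgeR adjusted p = 0.0106), and Acaa1a, the peroxisomal thiolase, rose by 0.52 (SE 0.13, adjusted p = 0.0142). Acaa1a has a near-identical copy, Acaa1b, so its reads are uncertain. Crot, the peroxisomal carnitine octanoyltransferase, fell by 0.52 (SE 0.15, edgeR adjusted p = 0.0217).

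Of 15 uptake and activation genes 2 were called higher and 1 lower in GCR (median -0.82). Slc27a4, a fatty acid transport protein, rose by 0.73 (SE 0.20, edgeR adjusted p = 0.0191), and Acsl4, which activates arachidonate, rose by 0.67 (SE 0.21, adjusted p = 0.0283). Of 12 genes of the pyruvate dehydrogenase switch 0 were higher and 2 lower (median -0.78): Pdp1, a phosphatase of the complex, fell by 1.16 (SE 0.31, edgeR adjusted p = 0.0155), and Pdk2, a kinase like Pdk4, fell by 2.27 (SE 0.72, adjusted p = 0.0317). Of 9 other PPAR targets tested, 0 were higher and 1 lower (median -0.68): Ucp2, an uncoupling protein of many tissues, fell by 0.87 (SE 0.26, edgeR adjusted p = 0.0271). Of 11 receptors and coactivators 1 was higher and 0 lower (median -0.47). Some called genes of these lists were named after their values were seen. They were Cpt1c at 0.50, Acaa1b at 1.44 and Ppard at 0.97, all higher, and Acad9 at -0.58 and Acsl6 at -3.88, both lower. The share of all genes called in this comparison, 16.6%, applies to all of these counts. Without the Nppa-rich libraries 6 of 12 genes of the pyruvate dehydrogenase switch and 4 of 23 other mitochondrial genes were called lower, where 19.2% of all genes were called, and without the Acta1-rich libraries none of any list was called in GCR against mock.

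In the other 7 comparisons 0 genes of these lists were called with all libraries. Values that did not pass included Cpt1a at -0.48 (SE 0.18, edgeR adjusted p = 0.195) in silicon against mock, Slc27a1 at 1.33 (SE 0.42, adjusted p = 0.246) in gamma against mock, and Vnn1 at 1.23 (SE 0.40, adjusted p = 0.117) in mock + NR against mock.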

How the data were processed

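Per the labels' protocols, RNA was extracted from lung with Trizol, cDNA was made with SMART-seq v4 and libraries with Nextera XT. The submitters' processing notes name the build mm10 and the tools STAR 2.5.2, HTSeq 0.13.5, Trimmomatic 0.36, FastQC 0.11.4 and MultiQC 1.12, with no role, strand setting or annotation stated. Values in the deposited table are whole read counts of each symbol with totals that differ between libraries, taken as not normalized by the authors. Total counts per library ranged from 9485197 to 66381526. Counts without molecular identifiers are not independent molecules, so limits given for 0 counts cover counting error only.

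CPM was computed here from the counts and each library's total. Counts were tested with edgeR 4.0.16 in R 4.3.3 (TMM, filterByExpr, quasi-likelihood, group and sex as terms, all 37 libraries), with Benjamini-Hochberg adjustment over 16977 genes and calls at an adjusted p under 0.05. Each standard error was the absolute fold change over the square root of F. The test was checked on simulated counts. Alternatives were DESeq2 1.42.0, limma voom 3.58.1 with quality weights, RLE factors, no count filter, no sex term, only the groups compared, fits without kinds of library, and without each library in turn. Fits without Ucp1-rich libraries were added after the data were seen.

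The sources used here do not state whether mice of a group were housed or processed together. The p values measure the spread between these mice and cannot separate a group from conditions its mice may have shared. No pair of libraries of a group agreed within sampling noise (over 98 pairs, the chi-square divided by its degrees of freedom was 19.2 or more). The 10 genes, the other lists and the library limits were chosen with earlier results of these data known. From the other lists the text names up to 4 called genes of smallest p in each direction, or the 2 of smallest p where none was called, with examples taken from these. The genes running closest were the first 8 by Pearson r. Some genes these rules select are not reported here.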

Additional observations from a re-analysis of the deposited data

Results flagged for a closer look

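Within each group of mice, the highest or lowest value of each of the 10 genes was compared with the rest by Dixon's test. Of 60 groups of values, 28 had a library far from the others, each time on the high side. The test's chance rate of about 1 in 20 holds for normally distributed values. It was made on CPM without logs, which is skewed towards high values, so that rate does not apply to the 28. Most came from 4 mice that were high for several of these genes at once, so the 28 are not independent.

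Gamma replicate 3 stood far above the other gamma mice for 8 genes: Acadl at 1221 CPM, Acadm at 948, Acadvl at 1019.9, Etfdh at 395, Hadha at 319.6, Hadhb at 1073, Cpt2 at 276 and Pdk4 at 585 CPM. It held 17519 CPM of Nppa and 807 CPM of Ucp1. Mock replicate 5 stood apart for 6 genes: Acadl at 824 CPM, Acadm at 574, Acadvl at 686, Etfdh at 190.0, Hadha at 172 and Hadhb at 643 CPM. It held 499.9 CPM of Ucp1 and 9902 CPM of Acta1.

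GCR replicate 4 stood apart for 6 genes: Acadl at 345 CPM, Acadvl at 264, Etfdh at 85.6, Hadhb at 222, Cpt2 at 53.1 and Pdk4 at 187 CPM. It had the deepest library (66381526 counts) and the highest cardiac marker sum of its group. Silicon replicate 4 stood apart for 6 genes: Acadl at 601 CPM, Acadm at 525.8, Acadvl at 638, Etfdh at 210.4, Hadha at 229 and Ppargc1a at 58.6 CPM. It had the highest skeletal muscle marker sum of all libraries. Cpt1b was far above the rest in silicon + NR replicate 1 at 0.915 CPM and in mock + NR replicate 2 at 0.896 CPM, both over 1000 CPM of Acta1. The part of these tissues in the values was not tested.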

How the results depend on the processing

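Of 10 genes, 0 were called in all 8 comparisons with all libraries and edgeR. In GCR against mock the count was 2 with DESeq2 (Acadvl and Etfdh, with 22.6% of all genes called). It was 5 without the Nppa-rich libraries (19.2% of all genes called). With single libraries left out the count ran from 0 to 4. It was 4 (Acadl, Acadvl, Etfdh and Pdk4, 24.1% of all genes called) without GCR replicate 4 and 1 (Acadvl, 19.1%) without mock replicate 4. In silicon + NR against silicon it was 2 with limma voom (Cpt1b and Pdk4, 24.8% of all genes called). No call changed direction. All other alternatives gave 0. Over all genes, GCR against mock called 2811 with edgeR, 3834 with DESeq2, 1516 with limma voom, 909 with only the groups compared, and 0 without the Acta1-rich or the Rn45s-rich libraries. The median of the 10 in gamma against mock was -0.51 with limma voom and -0.63 without gamma replicate 3. The causes were not tested. No paired analysis was possible because the labels give no replicate numbers shared between groups. Cpt1b could not be tested without both muscle kinds, or in the fits on a pair of groups alone, since it did not pass the count filter there. In GCR against mock the SEs of the genes other than Cpt1b were 0.35 to 0.93 on the log2 scale, which limits the differences that could be called.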
